A study of Mus musculus with 6 samples.

Results

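The transcripts described here encode 10 integrin chains, 3 beta chains (Itgb1, Itgb2 and Itgb7) and 7 alpha chains (Itgal, Itgam, Itga4, Itgae, Itga1, Itga6 and Itgav). They were chosen by gene name from the deposited table of 54532 genes, each name matched 1 row, and all 10 passed the filter on low counts along with 14054 genes in all. The measurement is RNA-seq of liver CD8+ T cells of mice, with 3 control libraries and 3 libraries of a group called CUMS. The genotype entry reads wild type for the control libraries and CUMS for the others. The abbreviation is not spelled out in the labels. The title of the series concerns chronic stress. Strain, sex, age and any pooling of animals are not given. Nor do the labels say that replicates came from separate animals, so each p-value rests on a spread between libraries that may be technical.

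Integrins are adhesion receptors made of an alpha and a beta chain, and the pairing sets the ligand. Itgal with Itgb2 forms LFA-1, which binds ICAM proteins and holds a T cell to its target or to endothelium, and Itgam with Itgb2 forms Mac-1, a receptor of myeloid cells. Itga4 pairs with Itgb1 to make VLA-4, which binds VCAM-1, and with Itgb7 to make the gut homing receptor that binds MAdCAM-1. Itgae, which encodes CD103, pairs with Itgb7 and binds E-cadherin of epithelium. Itga1 and Itga6 pair with Itgb1 to make collagen and laminin receptors, and Itgav pairs with several beta chains and is known for releasing active TGF-beta. On T cells the receptors bind ligand strongly only after signals inside the cell bring talin and kindlin to the beta chain tail.

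The coding strand of this tail is shown for Itgb1 and Itgb7, the alternative partners of Itga4, because the ratio of their transcripts separated the groups of libraries. Each line gives the last 150 coding bases of the principal transcript before the stop codon (GENCODE M21, GRCm38). Capitals mark the codons of the NPxY/F motif, known as the binding site of talin (the upstream copy) and kindlin (the downstream copy). A search of the reading frame found 2 copies in each stretch.
Itgb1: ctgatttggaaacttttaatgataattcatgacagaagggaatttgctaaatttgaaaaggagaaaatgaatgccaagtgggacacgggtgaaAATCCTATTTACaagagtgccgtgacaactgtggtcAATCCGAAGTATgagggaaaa
Itgb7: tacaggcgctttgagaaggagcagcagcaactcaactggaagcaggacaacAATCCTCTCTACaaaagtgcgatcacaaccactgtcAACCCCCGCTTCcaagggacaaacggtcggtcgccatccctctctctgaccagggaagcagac
The Itgb1 stretch lies at chr8:128726100-128732085 on the plus strand and is joined from exons 15 and 16 of 16. The Itgb7 stretch lies at chr15:102216163-102216516 on the minus strand and is joined from exons 14 and 15 of 15. Among the alpha chains, Itgal, Itgam, Itgae and Itga1 belong to the class with an inserted ligand-binding domain, and their principal transcripts had 1153 to 1179 codons. Those of Itga4, Itga6 and Itgav, which lack it, had 1032 to 1073.

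The libraries held 14902248 to 18023206 reads in genes. CUMS replicates 2 and 3 stood apart. Of 1264 genes with a mean of 1 to 2 CPM (a gene's reads relative to the library total, scaled by TMM), up to 22.5% had no read in these libraries (CUMS replicate 3), against 0.0791% to 1.90% in the other 4. None of 1735 genes of 10 to 20 CPM lacked reads in any library, and the least abundant integrin chain, Itga1, had at least 103 reads in each. Of the 7 markers listed for CD8+ T cells, Cd3d, Cd3e, Cd3g, Trac and Trbc2 are shared with CD4 T cells. Cd8a was at 740.8 to 838.0 CPM in control and 1161 to 1218 in CUMS, and Cd8b1 at 701.0 to 776.5 and 812.6 to 1016. The 7 summed to 3284 to 3559 CPM in control and 4038 to 4435 in CUMS. The libraries also held reads of other cells. Summed levels of 4 CD4 T cell markers were 342.1 to 396.4 CPM in control against 154.1 to 167.7 in CUMS. Those of 12 monocyte and neutrophil markers were 4053 to 6236 against 2828 to 3073 CPM. They lay above the sum of the 7 T cell markers in each control library and below it in each CUMS library. All 4 CD4 T cell markers and 4 of the 12 monocyte and neutrophil markers were lower at an edgeR adjusted p under 0.05. Of all genes tested, 0.946% were. Of the 12, only Ly6c2 had a higher fitted value in CUMS (log2 fold change 0.23 ± 0.12, edgeR adjusted p = 0.39). The sum of 6 B cell markers overlapped between the groups, at 611.4 to 658.1 against 626.2 to 692.8 CPM. Of these, Jchain, a marker of plasma cells, was at 15.3 to 18.5 against 7.08 to 9.27 CPM (edgeR adjusted p = 0.0511). The hepatocyte markers summed to 6.99 to 8.49 CPM in the controls and were higher in each CUMS library, at 10.1 to 17.0 CPM. In bulk RNA, fewer cells of a type and less RNA per cell cannot be told apart.

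Per length, the order of the chains was led by Itgb7, with a mean of 305.3 CPM per kilobase over the 6 libraries, followed by Itgb2 (229.7), Itgal (144.6), Itgb1 (77.8), Itga4 (55.7), Itgae (31.4), Itga6 (19.5), Itgam (8.02), Itgav (4.31) and Itga1 (0.564). Ranges over the libraries overlapped between Itgb7 and Itgb2, Itgb1 and Itga4, Itgae and Itga6, and Itgam and Itgav, and the other neighbours lay apart. Itgb7 was above Itgb2 within each of the 6 libraries, while Itgb1 was above Itga4 in 5 of 6. The lengths are those of the deposited table. With the length of the principal transcript instead, Itga6 (40.8 CPM per kilobase) came before Itgae (37.4), and the other ranks were the same. By CPM without length, Itgal, Itgb7, Itga4 and Itgb2 lay above 98.8% or more of the genes tested.

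**Figure D1:**
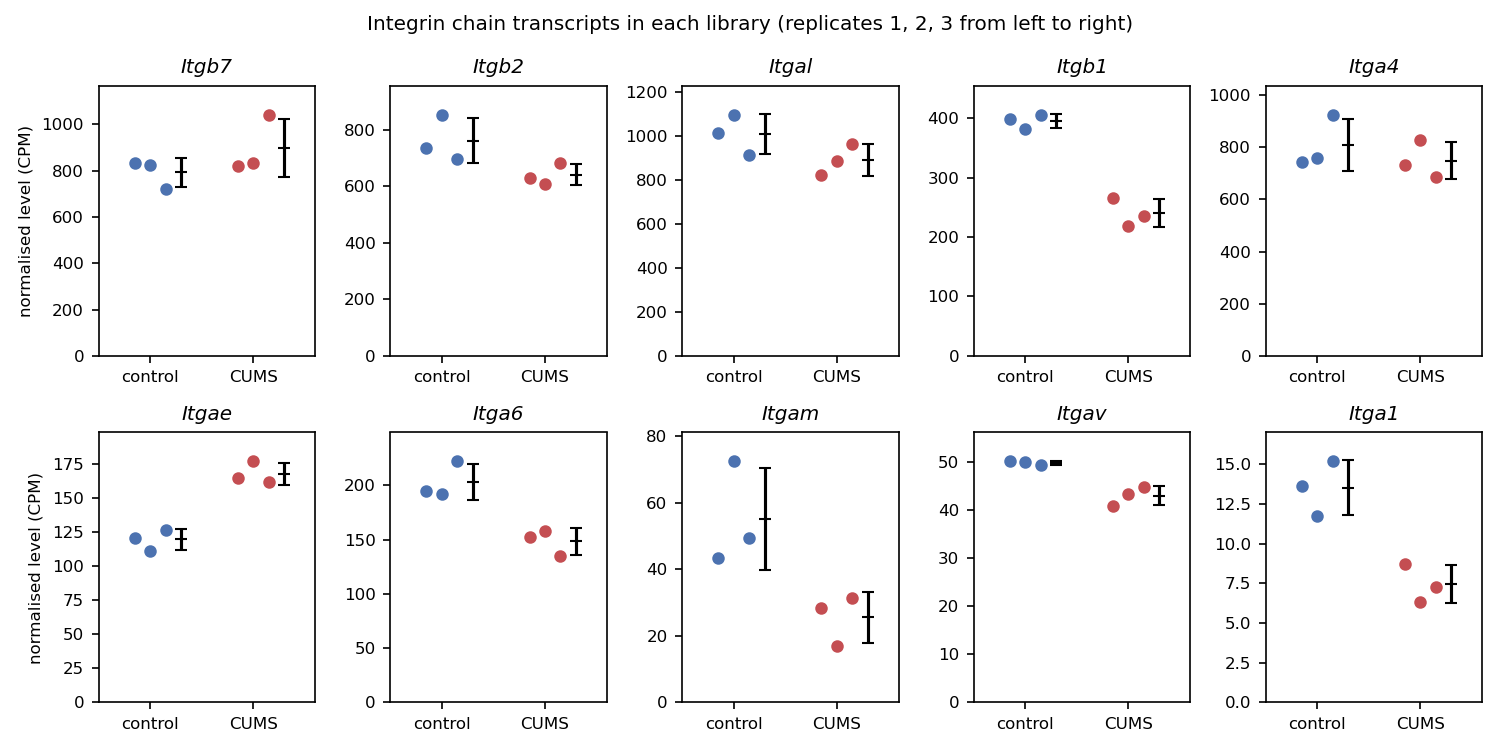
Normalised level (CPM, linear axis from 0) of each integrin chain in the 3 control (blue) and 3 CUMS (red) libraries, ordered by level per length, with mean and SD (black) beside the points. The CUMS libraries of Itgb1 lie between 219.1 and 265.3 CPM, all below the control libraries at 382.0 to 405.4, and those of Itgae lie at 161.6 to 177.0, all above the control libraries at 111.4 to 126.7.

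Between the groups, Itgb1 fell, by 1.65-fold. It was the only 1 of the 10 chains past the threshold of edgeR's quasi-likelihood test (Benjamini-Hochberg adjusted p of 0.05 over all genes), where 1.31% of all genes passed, 0.946% as lower and 0.363% as higher. None of the chains passed as higher in this edgeR fit. Itgae did pass as higher with edgeR under library size alone, no filter on low counts or a stricter filter. At an unadjusted p under 0.05, 5 were lower and 1 was higher, where 15.3% of all genes tested passed, 8.22% lower and 7.06% higher. DESeq2 and limma voom each called 3 lower and 1 higher. Of all genes tested, DESeq2 called 4.73%, 3.08% lower and 1.65% higher, and limma voom 3.54%, 2.08% lower and 1.46% higher. The fitted values of 8 chains were lower and of 2 higher, with a median log2 fold change of -0.23 against -0.01 over all genes tested. The groups of libraries did not overlap for 7 of the 10, 6 lower in CUMS and 1 higher. For all genes tested the share without overlap was 22.7%, with 11.9% lower and 10.8% higher. Without CUMS replicates 2 and 3, edgeR called none of the 10, with 4 lower and 1 higher at an unadjusted p under 0.05, against 11% of all genes in that fit, 6.36% lower and 4.69% higher.

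Itgb1 (ENSMUSG00000025809, mm10 chr8:128685654-128733200, plus strand), the beta chain shared by the VLA integrins, was at 397.7, 382.0 and 405.4 CPM in the control libraries, in the order of their replicate numbers, and at 265.3, 219.1 and 235.3 CPM in the CUMS libraries. The controls lay within a narrow band, and each CUMS library lay below all of them. The means were 395.0 ± 11.9 and 239.9 ± 23.4 CPM (SD, n = 3), a log2 fold change of -0.72 ± 0.11 SE with a 95% interval of -0.95 to -0.48 (edgeR adjusted p = 0.0136). By p it ranked 28 of 14054 genes. No other gene of the deposited table overlaps Itgb1. The adjusted p was 0.0663 without control replicate 2, 0.0694 without CUMS replicate 2 and 0.159 without CUMS replicates 2 and 3 together, with log2 fold changes of -0.75, -0.66 and -0.58.

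Itgb7 (chr15:102215995-102231944, minus strand), the beta chain of CD103 and of the gut homing receptor, had 835.0, 824.4 and 721.4 CPM in control and 821.2, 832.3 and 1040.4 in CUMS. Only CUMS replicate 3 lay above every control library. The log2 fold change was 0.18 ± 0.12 (95% interval -0.08 to 0.44, edgeR adjusted p = 0.534). Itgb2 (chr10:77530252-77565708, plus strand), the beta chain of all leukocyte beta2 integrins, had 734.6, 851.9 and 697.7 CPM in control and 629.7, 609.4 and 683.7 in CUMS. The groups lay apart by a small gap between control replicate 3 and CUMS replicate 3. The log2 fold change was -0.25 ± 0.11 (95% interval -0.48 to -0.01, edgeR adjusted p = 0.301).

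The makeup of the beta chain transcripts within a library needs no factor between libraries. Of the summed level per length of Itgb1, Itgb2 and Itgb7, Itgb1 made up 15.24%, 13.96% and 16.88% in control and 11.45%, 9.695% and 8.773% in CUMS. Itgb7 made up 47.13%, 44.40% and 44.26% in control and 52.21%, 54.25% and 57.15% in CUMS. Itgb2 made up 37.63%, 41.64% and 38.86% in control and 36.34%, 36.05% and 34.08% in CUMS. All 3 shares separated the groups of libraries. On average Itgb7 was 9.28 percentage points higher in CUMS, Itgb1 differed by -5.39 points and Itgb2 by -3.88, each with p = 0.1 in a two-sided exact permutation test, the smallest p that 3 against 3 libraries allow. The 3 shares sum to 100 in each library and are not independent. Levels of Itgb7 per level of Itgb1 were 2.62 to 3.18 in control and 4.56 to 6.51 in CUMS.

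**Figure D2:**
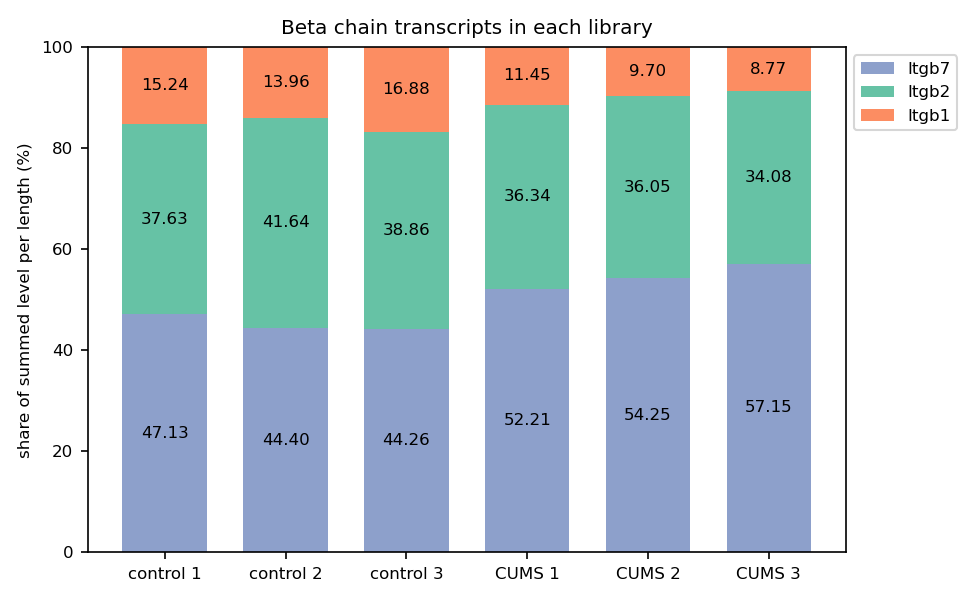
Share (percent, stacked to 100) of Itgb7, Itgb2 and Itgb1 in their summed level per length in each library. The Itgb1 part is 13.96 to 16.88% in the 3 control libraries and 8.773 to 11.45% in the 3 CUMS libraries.

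The start regions of both genes are shown because Itgb7 per Itgb1 separated the groups. They come from RefSeq (GRCm38.p6), run from 250 bases before to 50 bases after the annotated start, and were found for 6 of the 10 chains. Capitals mark matches on either strand to any of 4 motifs. The GC box was searched as GGGCGG, the core bound by RUNX factors as TGTGGT, the core bound by ETS factors as CGGAAG, and the CCAAT box by the letters of its name. No match overlapped another in either window.
Itgb1 chr8:128685404-128685703, plus strand: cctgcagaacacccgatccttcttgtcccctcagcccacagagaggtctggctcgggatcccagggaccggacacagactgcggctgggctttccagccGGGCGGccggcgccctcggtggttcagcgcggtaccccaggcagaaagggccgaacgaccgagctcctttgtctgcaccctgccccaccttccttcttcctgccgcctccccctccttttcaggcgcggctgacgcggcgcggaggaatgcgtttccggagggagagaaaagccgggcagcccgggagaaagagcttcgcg
Itgb7 chr15:102231886-102232185, minus strand: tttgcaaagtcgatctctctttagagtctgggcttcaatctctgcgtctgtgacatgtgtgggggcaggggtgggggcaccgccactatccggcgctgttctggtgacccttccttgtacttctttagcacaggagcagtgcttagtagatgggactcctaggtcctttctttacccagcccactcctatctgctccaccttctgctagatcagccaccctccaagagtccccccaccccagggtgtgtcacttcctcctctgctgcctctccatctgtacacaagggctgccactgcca
The Itgb1 window held 1 GC box match on the plus strand, at position -151 from the start, and none of the other motifs. The Itgb7 window held none of the 4. Of all 32851 windows in the table, 35.7% held a GC box match, 16.8% a RUNX core, 16.9% an ETS core and 37.4% a CCAAT box. G and C made up 67.3% of the Itgb1 window and 56.3% of the Itgb7 window, against a median of 52.7% over all windows. These are matches of letters and show no binding.

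Among the alpha chains that pair with Itgb7, Itgae had a higher fitted value in CUMS, just short of the threshold. Itgae (ENSMUSG00000005947, chr11:73090583-73147446, plus strand) had 121.1, 111.4 and 126.7 CPM in control and 164.5, 177.0 and 161.6 in CUMS. Each CUMS library lay above all controls. The means were 119.7 ± 7.75 and 167.7 ± 8.19 CPM (SD, n = 3) and the log2 fold change was 0.49 ± 0.11 (95% interval 0.25 to 0.72, edgeR adjusted p = 0.0545). Itgae and Itgam were the chains nearest to the threshold on its outer side, and Itgae stood at rank 201 by p. Haspin, an intronless kinase gene on the opposite strand, lies inside the Itgae gene, and the strand setting of the counting is not given. Haspin had 12.4 to 16.8 CPM in control and 13.1 to 18.1 in CUMS (log2 fold change 0.11 ± 0.22, edgeR adjusted p = 0.884).

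Itga4 (chr2:79255426-79333123, plus strand), the alpha chain of VLA-4, had 744.2, 760.0 and 923.7 CPM in control and 733.0, 826.6 and 685.1 in CUMS. The groups overlapped. The log2 fold change was -0.11 ± 0.12 (95% interval -0.37 to 0.14, edgeR adjusted p = 0.729). Relative to Itgb1 per length, Itga4 was 0.546, 0.581 and 0.665 in control and 0.807, 1.10 and 0.850 in CUMS, without overlap. Relative to Itgb7, Itga4 was 0.177 to 0.254 in control and 0.131 to 0.197 in CUMS, with overlap. Itgae per Itga4 was 0.418 to 0.497 in control against 0.653 to 0.720 in CUMS, again without overlap, and its mean was 1.51 times as high in CUMS. Itgae per Itgb7 overlapped, at 0.0817 to 0.106 and 0.0939 to 0.129. None of these ratios was tested.

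Among the chains described here, Itga6 and Itga1 pair with Itgb1 in laminin and collagen receptors, and both had lower values without passing. Other alpha chains of such receptors were also tested, and not all of them had lower fitted values. Itga6 (chr2:71745616-71858416, plus strand), of the laminin receptor, had 194.9, 191.8 and 222.2 CPM in control and 152.9, 158.4 and 134.5 in CUMS, with no overlap. Its log2 fold change was -0.45 ± 0.11 (95% interval -0.70 to -0.20, edgeR adjusted p = 0.0822). Itga1 (chr13:114953096-115101964, minus strand), the collagen receptor chain CD49a, is used as a marker of tissue-resident T cells and of liver type 1 innate lymphoid cells. It had 241, 209 and 265 reads in control and 155, 103 and 110 in CUMS, or 13.6, 11.7 and 15.2 against 8.71, 6.34 and 7.26 CPM. The groups lay apart. The log2 fold change was -0.86 ± 0.25 (95% interval -1.41 to -0.31, edgeR adjusted p = 0.122). The gene Pelo lies inside Itga1 on the same strand, with 56 to 116 reads in control, 48 and 95 in CUMS replicates 1 and 3 and none in CUMS replicate 2. The gene Gm49395 also overlaps Itga1 on the same strand, with 7, 3 and 0 reads in control and none in CUMS. The effect of these overlaps on the Itga1 counts was not tested. In the same libraries the 6 markers of NK cells and innate lymphoid cells had a median log2 fold change of -0.71. Ncr1 (-0.06 ± 0.61) and Eomes (-0.04 ± 0.13) had the smallest fitted differences, and the others lay between -0.91 and -0.61. None was called by edgeR. At an unadjusted p under 0.05 with edgeR, 3 were lower, beside 8.22% of all genes tested. DESeq2 and limma voom each called 2 lower, beside 3.08% and 2.08% of all genes. The part of these cells in the Itga1 values was not tested. Itga1 per Itgb1 was 0.00675 to 0.00822 in control and 0.00635 to 0.00720 in CUMS, with overlap.

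Itgav (chr2:83724397-83806916, plus strand) had the least spread among the controls, at 50.1, 49.9 and 49.3 CPM, and 40.8, 43.3 and 44.8 CPM in CUMS. The groups lay apart by a small margin, and the log2 fold change was -0.21 ± 0.13 (95% interval -0.50 to 0.07, edgeR adjusted p = 0.494). Itgb3, a beta chain that pairs with Itgav in the vitronectin receptor and with Itga2b on platelets, fell. It had 89.1, 98.8 and 78.1 CPM in control and 44.4, 51.3 and 51.9 in CUMS (log2 fold change -0.85 ± 0.14, edgeR adjusted p = 0.0183). In fits that left out 1 library each, Itgb3 passed in 2 of 6, with log2 fold changes of -0.95 to -0.77, and without CUMS replicates 2 and 3 its edgeR adjusted p was 0.145. Itgb3 was the only 1 of 13 other integrin chains tested that passed, 16 being on the list, and the median log2 fold change of the 13 was -0.57. Several of the 13 had no read in CUMS replicate 2 or 3. Of all genes tested, 0.946% passed as lower. At an unadjusted p under 0.05 with edgeR, 4 of the 13 were lower and none was higher, beside 8.22% and 7.06% of all genes. Itga5, the fibronectin receptor chain, was at -0.57 ± 0.24 (edgeR adjusted p = 0.279). Itgb4, an epithelial laminin receptor chain, had 19, 37 and 20 reads in control and 7, 0 and 0 in CUMS (edgeR adjusted p = 0.307). Of the platelet markers Pf4, Ppbp, Gp9 and Gp1bb, none reached the filter, and their summed level was 0.516 to 3.32 CPM in control and 0.337 to 1.72 in CUMS.

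The myeloid chain Itgam had the largest fitted difference of the 10. Itgam (ENSMUSG00000030786, chr7:128062640-128118491, plus strand), which encodes CD11b, had 43.4, 72.4 and 49.4 CPM in control and 28.5, 16.8 and 31.4 in CUMS. Control replicate 2 was the highest and CUMS replicate 2 the lowest, and the groups did not overlap. The log2 fold change was -1.11 ± 0.25 (95% interval -1.65 to -0.56, edgeR adjusted p = 0.057). The gene Gm49368 overlaps Itgam on the same strand, with 13, 9 and 17 reads in control and 5, 0 and 0 in CUMS. The effect of this overlap on the Itgam counts was not tested. Control replicate 2 also had the highest summed level of the 12 monocyte and neutrophil markers, 6236 CPM against 4153 and 4053 in the other controls and 3073, 2906 and 2828 in CUMS. As a share of that sum, Itgam was 1.04 to 1.22% in control and 0.578 to 1.11% in CUMS, with overlap. Among 8 Kupffer cell markers, Timd4 had no read in any library. Clec4f had at most 8, Marco at most 4, Vsig4 at most 2 and Cd5l at most 10. C1qa, which was not tested, had 19, 26 and 0 reads in control and 7, 0 and 0 in CUMS. C1qb had 20, 49 and 37 against 12, 0 and 0 reads (log2 fold change -3.08 ± 1.41, edgeR adjusted p = 0.329). Adgre1 had 17.0 to 21.4 CPM in control and 7.86 to 14.9 in CUMS (log2 fold change -0.81 ± 0.26, edgeR adjusted p = 0.156). The myeloid chain Itgax, which encodes CD11c and also pairs with Itgb2, was at -0.64 ± 0.21 on the log2 scale (edgeR adjusted p = 0.177).

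Itgal (ENSMUSG00000030830, chr7:127296260-127335138, plus strand), the alpha chain of LFA-1, had the highest mean CPM of the chains in control, 1008.5 against 809.3 for Itga4, and was close to Itgb7 in CUMS, 891.6 against 898.0. It had 1014.7, 1095.7 and 915.2 CPM in control and 823.2, 886.0 and 965.6 in CUMS. CUMS replicate 3 lay inside the control range. The log2 fold change was -0.18 ± 0.11 (95% interval -0.41 to 0.05, edgeR adjusted p = 0.486). Per level of Itgb2, Itgal was 0.598 to 0.642 in control and 0.607 to 0.676 in CUMS. CUMS replicate 1 lay inside the control range and CUMS replicates 2 and 3 above it. Itgam per Itgb2 was 0.0359 to 0.0516 in control and 0.0168 to 0.0279 in CUMS, without overlap.

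**Figure D3:**
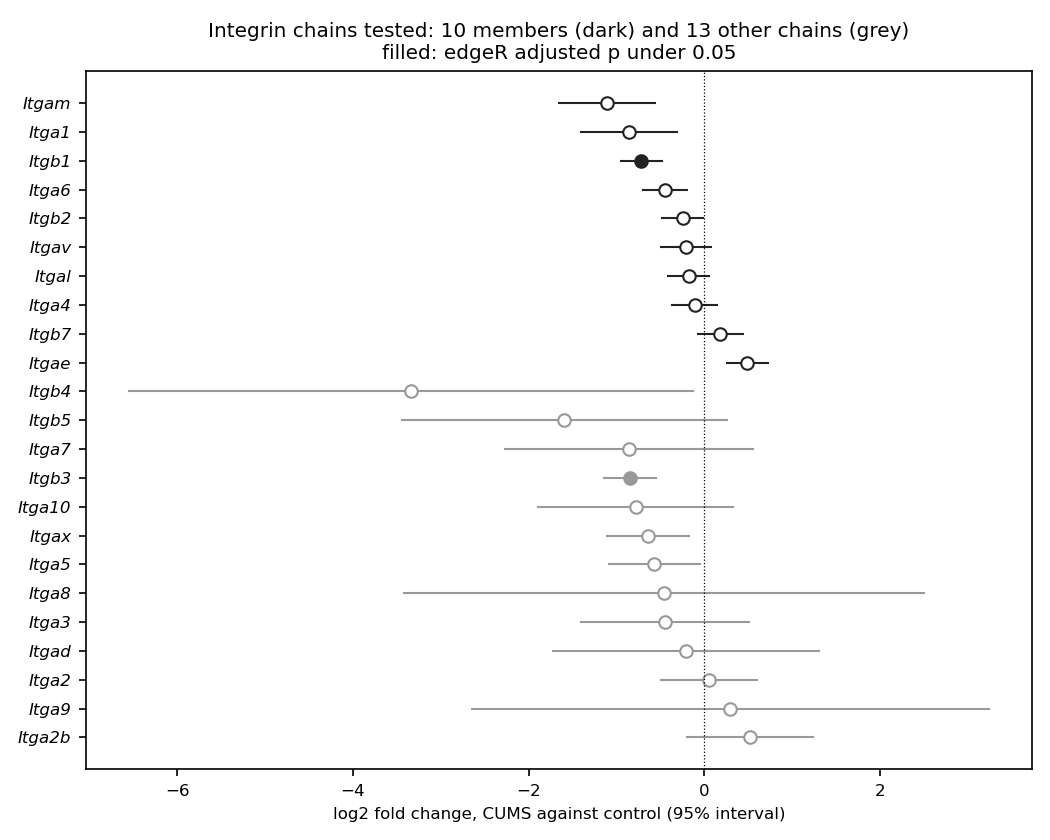
Fitted log2 fold change (CUMS against control, points) with 95% interval (lines) of the 10 integrin chains (dark) and 13 other integrin chains tested (grey), with filled points for an edgeR adjusted p under 0.05. Itgb1 at -0.72 and Itgb3 at -0.85 are the filled points, and Itgae at 0.49 has an interval of 0.25 to 0.72.

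Levels were also set against reference genes of the same library, since the groups differed in the levels of marker genes. Relative to the summed CD3 chains Cd3d, Cd3e and Cd3g, which all T cells use, Itgb1 was 37.5 to 40.3% in control against 20.6 to 22.8% in CUMS, without overlap. Itgae was 11.3 to 12.6% of them against 14.1 to 16.7%, also without overlap. Relative to Cd8a, which itself rose in CUMS (log2 fold change 0.56 ± 0.09, edgeR adjusted p = 0.0225), Itgae was 14.8 to 15.1% in control and 13.5 to 15.2% in CUMS, with overlap. Itgb1 was 48.4 to 51.6% of Cd8a in control and 18.9 to 21.8% in CUMS. Relative to Cd4, which fell (log2 fold change -1.29 ± 0.10, edgeR adjusted p = 0.000362), Itgb1 was higher in CUMS, at 233.2 to 289.0% against 159.5 to 186.3%. These directions were not particular to Itgb1. Most of the integrin chains were, without overlap, higher relative to Cd4 and lower relative to the CD3 chains and to Cd8a. Relative to the summed monocyte and neutrophil markers, Itgb1 was 7.54 to 8.63% in CUMS, inside the control range, which began at 6.13%. Itgb1 is used by T cells and by myeloid cells, and the part of each cell type in its fall was not tested.

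**Figure D4:**
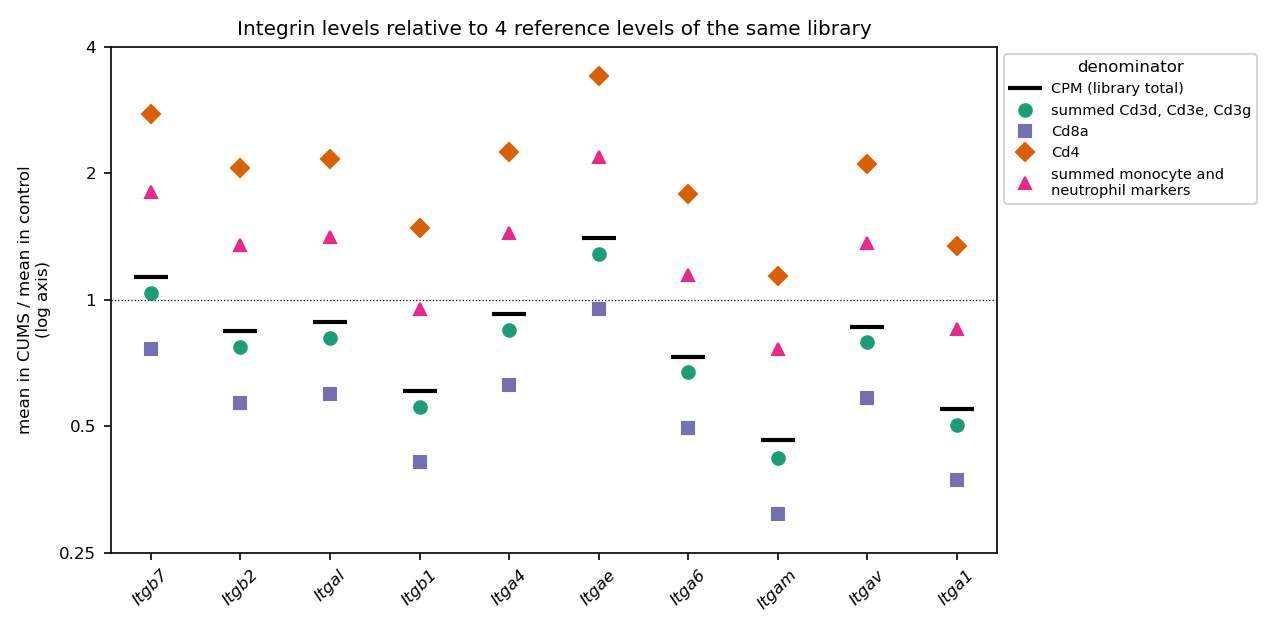
Mean in CUMS over mean in control (log axis) of each integrin chain by CPM (black bar) and relative to 4 reference levels of the same library. Itgb1 is at 0.556 relative to the CD3 chains and 1.48 relative to Cd4, and Itgae is at 0.950 relative to Cd8a.

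Genes that control integrin activation, inhibitors included, were examined as a list. Of 40 tested genes of inside-out activation and adaptors (43 on the list), 1 fell, none rose and 39 did not pass, with a median log2 fold change of -0.10. Of all genes tested, 0.946% passed as lower and 0.363% as higher. Fitted values were lower for 32 of the 40. At an unadjusted p under 0.05 with edgeR, 8 were lower and none was higher, beside 8.22% and 7.06% of all genes. The groups did not overlap for 9 that were lower and 1 that was higher, beside 11.9% and 10.8% of all genes. The member that fell was Lyn, a SRC family kinase of myeloid and B cells (log2 fold change -0.86 ± 0.17, edgeR adjusted p = 0.0352), which missed the threshold whenever 1 of the 6 libraries was left out (edgeR adjusted p = 0.0545 to 0.175). Cytip, which dampens LFA-1 adhesion through cytohesin, had -0.34 ± 0.11 (edgeR adjusted p = 0.151). Itgb1bp1, which binds the Itgb1 tail and competes with talin, had -0.68 ± 0.22 (edgeR adjusted p = 0.168), and it overlaps Cpsf3 and Asap2 on the opposite strand and Gm20535, with at most 17 reads in a library, on the same strand.

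Of the ligands and counter-receptors, 16 of 27 were tested. Among them 1 fell, none rose and 15 did not pass, with a median log2 fold change of -0.34. Several of the 16 had no read in CUMS replicate 2 or 3. Of all genes tested, 0.946% passed as lower and 0.363% as higher. At an unadjusted p under 0.05 with edgeR, 5 of the 16 were lower and none was higher, beside 8.22% and 7.06% of all genes. Thbs1, a secreted glycoprotein that binds integrins, had 16.3, 21.8 and 18.2 CPM in control and 3.09, 1.23 and 7.20 in CUMS (log2 fold change -2.29 ± 0.47, edgeR adjusted p = 0.0419), and it passed in 1 of 6 fits that left out a library (edgeR adjusted p = 0.00666 to 0.195). Without CUMS replicates 2 and 3 its edgeR adjusted p was 0.0387, and with the replicate number as a block it was 0.055. Icam1, the ligand of LFA-1, had -0.41 ± 0.15 (edgeR adjusted p = 0.216). The laminin chain Lamc1 had -1.22 ± 0.35 (edgeR adjusted p = 0.122), and C3, whose fragment iC3b binds Mac-1, had -0.66 ± 0.20 (edgeR adjusted p = 0.141). Vcam1, the ligand of VLA-4, had 7 reads in control replicate 1 and none in the other 5 libraries.

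Of 19 regulators known for Itgae, the TGF-beta pathway and the transcription factors of the RUNX and T-box families among them, none passed in either direction with edgeR, DESeq2 or limma voom. Beside this, edgeR called 1.31% of all genes tested, DESeq2 4.73% and limma voom 3.54%. At an unadjusted p under 0.05 with edgeR, 4 of the 19 were lower and none was higher, beside 8.22% of all genes lower and 15.3% in either direction. Its median log2 fold change was -0.06. The 4 were Zfp683, the residency factor Hobit (-0.92 ± 0.27, edgeR adjusted p = 0.122), Prdm1, which encodes Blimp-1 (-0.58 ± 0.23, edgeR adjusted p = 0.251), Tbx21, which encodes T-bet and represses Itgae (-0.45 ± 0.15, edgeR adjusted p = 0.183), and the TGF-beta receptor chain Tgfbr1 (-0.34 ± 0.12, edgeR adjusted p = 0.211). Over the whole list the groups did not overlap for 5 genes that were lower and 2 that were higher, beside 22.7% of all genes.

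**Figure D5:**
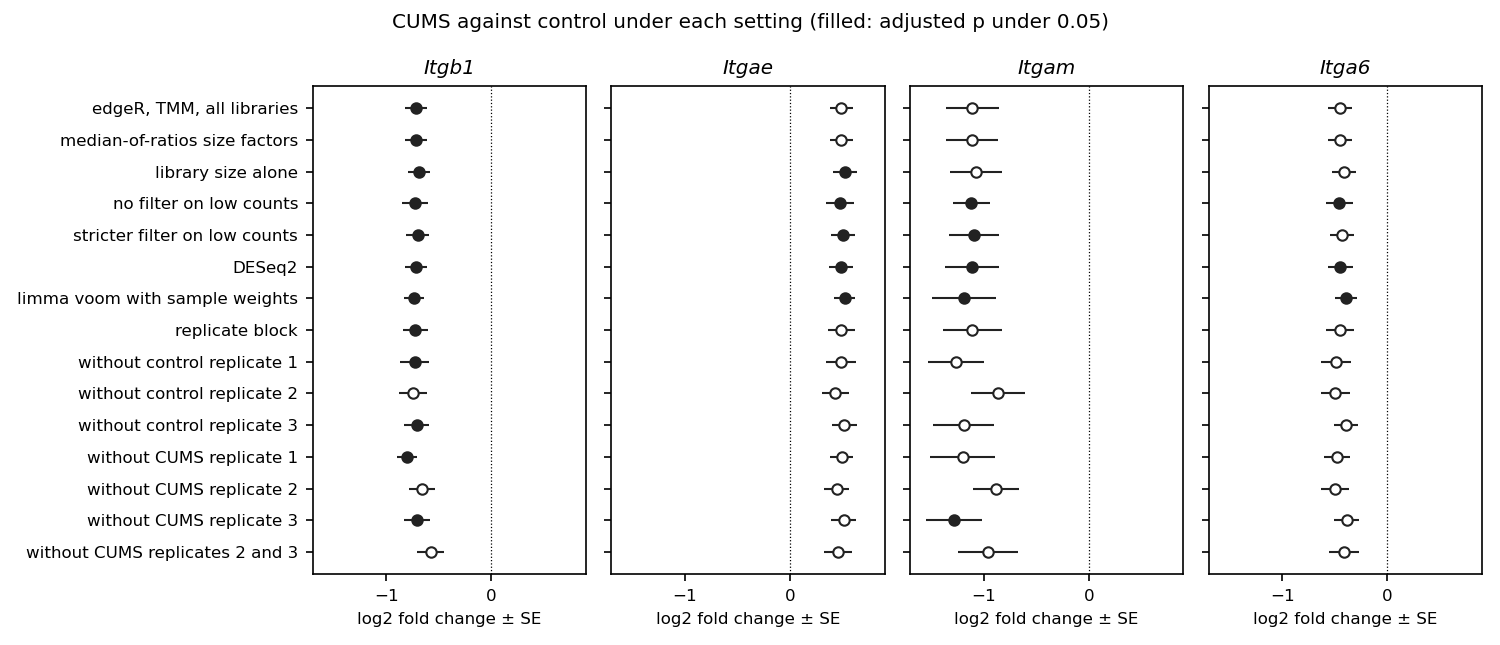
Fitted log2 fold change ± SE (CUMS against control) of Itgb1, Itgae, Itgam and Itga6 under each setting, with filled points for an adjusted p under 0.05. Itgb1 stays between -0.81 and -0.58 and Itgae between 0.43 and 0.52 in every setting shown, and the filled points differ between settings.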

How the data were processed

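The submitters' processing notes list mm10 as the build, and as tools featureCounts 1.5.0-p3, HISAT2 2.0.5, DESeq2 1.20.0 and fastp. Neither an annotation release nor a strand setting is given in the sources used here. The authors deposited unnormalized counts of reads for each gene. Libraries were grouped by their titles, and replicates of a group did not agree within counting noise (chi-square per gene 9.27 to 33.5). A count of 0 allows up to 3 reads, 0.166 to 0.201 CPM, which like all counting limits covers counting error only.

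The test was that of edgeR 4.0.16 under R 4.3.3 (filterByExpr, TMM, legacy glmQLFit, glmQLFTest, two-sided, Benjamini-Hochberg over 14054 genes, threshold 0.05). Each standard error is the log2 fold change over the root of F. The biological coefficient of variation was 29.8%. Alternatives were median-of-ratios factors, library size alone, no filter, a stricter filter (a mean of 50 counts, and 1 CPM or more in 3 libraries), limma 3.58.1 voom with sample weights, DESeq2 1.42.0, a replicate block, and libraries left out. The steps were tested on simulated counts. Levels per length divide by the deposited gene length.

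The 10 chains, the gene and marker lists, the tests and the alternatives were chosen with earlier results of these data known. Genes named outside the chains are those past the threshold in each list and otherwise the 4 with the smallest p. The result for 1 gene that this rule names is not reported here. Haspin, Pelo, Gm49395, Gm49368, Jchain, Ly6c2, Ncr1, Eomes and Vcam1 were named after their values were seen. So were the Kupffer cell markers. Promoter windows are from RefSeq and transcripts from GENCODE M21, both on the files' build. Figures were drawn with matplotlib 3.10.9.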

Additional observations from a re-analysis of the deposited data

How the results depend on the processing

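The number of genes past the threshold, 184 in the fit reported, was 704 with no filter on low counts, 316 with the stricter filter, 665 with DESeq2, 497 with limma voom and 71 with the replicate block. It was 9 to 178 when 1 library was left out and 7 without CUMS replicates 2 and 3. The lower calls among the 10 integrin chains, 1 as reported, numbered 3 with no filter, 2 with the stricter filter, 3 with DESeq2, 3 with limma voom, 0 to 2 when 1 library was left out and 0 without CUMS replicates 2 and 3. The higher calls, 0 as reported, numbered 1 (Itgae) with library size alone, with no filter, with the stricter filter, with DESeq2 and with limma voom. The cause of these shifts was not tested. Each of the 10 chains kept its sign in all 14 alternatives. Itgb1 passed in 11 of them, Itgae and Itgam in 5 each and Itga6 in 3. The differences in beta chain shares kept their sign in all their alternatives: without CUMS replicates 2 and 3 they were -3.91, -3.04 and 6.95 percentage points for Itgb1, Itgb2 and Itgb7, with an exact p of 0.25 or more for each. The labels do not say that the replicate numbers pair the libraries. Deviations of same-numbered libraries from their group means correlated at 0.014, -0.036 and -0.037 across genes. Those of libraries with different numbers correlated at -0.015 to 0.042. With 3 libraries per group, such correlations cannot exclude a pairing. With the replicate block Itgb1 was still the only chain called. Of the listed genes called, Itgb3 and Lyn passed with it and Thbs1 did not (adjusted p = 0.055). Fits with 1 CUMS library assume that it varies like the controls.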
